A study of Homo sapiens with 9 samples.

Results

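The insulin-like growth factor (IGF) system was followed at the RNA level through 10 genes, chosen by name: the binding proteins IGFBP1, IGFBP2, IGFBP3, IGFBP4, IGFBP5, IGFBP6 and IGFBP7, the receptors IGF1R and IGF2R, and the ligand IGF2. They were selected because IGFBP3 was lower in both knockdowns of the study. In the 2 comparisons with control cells the differences, and which members passed the threshold, are therefore a description. Only the comparison between the knockdowns is read as a test, and for IGFBP3 even this shares the knockdown arrays that the choice used. The 10 genes are read by 12 probes, out of 47753 genes and 58201 probes on the array. OEC-M1, a head and neck squamous cell carcinoma line, was transfected with a non-targeting siRNA (si-Control), an siRNA against GATA3 (GATA3 knockdown) or an siRNA against HIF-1α (HIF-1α knockdown), and each group was measured on 3 arrays. Every group, controls included, spent 18 h at 1% O2 within a transfection of 72 h, so no group shows the cells in normal oxygen. For the arrays the study's supplement names 1 siRNA per target. On the arrays, what the loss of the target did and what that siRNA did by other routes therefore cannot be told apart. The study's other assays with a second siRNA per target are not analysed here. Among them is real-time RT-PCR of IGFBP3, which the paper reports as bearing out its array result. All 9 arrays come from 1 cell line.

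IGF1 and IGF2 are secreted growth factors that signal for growth and survival through IGF1R, a receptor tyrosine kinase. IGF2R has no kinase of its own and carries IGF2 and lysosomal enzymes into the cell for breakdown. The IGF-binding proteins are secreted carriers that hold the ligands outside the cell, which can prolong their life or keep them from the receptor, and proteases set the ligand free again. GATA3 is a zinc finger transcription factor that binds GATA motifs, and HIF-1α is the oxygen-regulated subunit of the hypoxia factor that binds the hypoxia response element.

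The upstream DNA of 3 members is shown first because IGFBP3 is the gene on which the choice rests, and IGF1R and IGF2R because the 2 receptors hold the same motif. Each line gives the 250 bases before the gene's start as RefSeq places it on GRCh38.p14, written 5′ to 3′ on the gene's own strand. Capitals mark the core of the hypoxia response element, searched as ACGTG or GCGTG on both strands, so that CACGT and CACGC are the same core on the other strand.
IGFBP3, chr7:45921273-45921522, minus strand: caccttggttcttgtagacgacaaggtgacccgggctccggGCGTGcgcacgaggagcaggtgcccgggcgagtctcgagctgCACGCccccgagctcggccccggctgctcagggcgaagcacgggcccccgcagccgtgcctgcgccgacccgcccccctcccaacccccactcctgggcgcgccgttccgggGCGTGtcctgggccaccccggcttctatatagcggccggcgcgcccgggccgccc
IGF1R, chr15:98648289-98648538, plus strand: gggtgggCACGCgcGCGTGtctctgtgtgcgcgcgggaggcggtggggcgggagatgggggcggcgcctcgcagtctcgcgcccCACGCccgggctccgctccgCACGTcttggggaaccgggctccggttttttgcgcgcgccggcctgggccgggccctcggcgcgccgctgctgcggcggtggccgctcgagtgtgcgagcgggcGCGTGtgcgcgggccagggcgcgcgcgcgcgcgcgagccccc
IGF2R, chr6:159968832-159969081, plus strand: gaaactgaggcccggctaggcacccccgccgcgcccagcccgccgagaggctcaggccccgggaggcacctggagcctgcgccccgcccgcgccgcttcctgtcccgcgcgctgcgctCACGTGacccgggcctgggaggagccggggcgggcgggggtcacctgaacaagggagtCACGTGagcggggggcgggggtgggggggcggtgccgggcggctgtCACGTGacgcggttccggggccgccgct

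The IGFBP3 window held 3 cores, which start 209, 167 and 55 bases before the gene's start. The IGF1R window held 5, and the IGF2R window held 6 that form 3 palindromes, each read once on either strand. Of the other members, IGFBP2 held 1 core in 1 of its 3 windows, and IGFBP4, IGFBP5 and IGFBP6 held none. The table of promoters gave windows for 7 of the 10 members and not for IGFBP1, IGFBP7 and IGF2. A GATA motif, searched on both strands as AGATAA, allowing T as the first letter and G as the last, was in no window of these 7 genes. Across all 35116 windows of this length, 43.2% held a hypoxia response element core and 22.3% held a GATA motif. The GC content was 76.0% in the IGFBP3 window, 81.2% in that of IGF1R and 79.2% in that of IGF2R. In the windows of the other members it ran from 56.4% to 71.6%. No share was computed for windows of like GC content, so nothing is read from the members' motif counts.

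The array names each member by a RefSeq transcript. The levels below are log2 intensities after background correction and quantile normalization, comparable between arrays for 1 probe but not between probes. Both siRNAs lowered their targets. GATA3 was 11.10 ± 0.38 (SD, n = 3) in si-Control and 9.84 ± 0.49 in GATA3 knockdown, a difference of -1.27 (SE 0.34). HIF1A, which encodes HIF-1α, was 16.73 ± 0.50 in si-Control and 14.41 ± 0.25 in HIF-1α knockdown, a difference of -2.32 (SE 0.35). In HIF-1α knockdown GATA3 was 10.73 ± 0.41, and its arrays overlapped with those of GATA3 knockdown. For GATA3 knockdown minus HIF-1α knockdown the GATA3 difference was -0.89 (SE 0.34), and -0.66, -1.63 and -0.39 within the slides. HIF1A was 16.68 ± 0.56 in GATA3 knockdown. The arrays differed in brightness before normalization, with a median spot intensity from 992.5 on si-Control replicate 3 to 3560 on HIF-1α knockdown replicate 1. Between 74.3% and 88.5% of the spots of an array were well above background. Of the markers used to check the cell type, KRT14, KRT17, TP63, CDH1 and EPCAM were well above background on 9 of 9 arrays, KRT6A on 8 and KRT5 on 0. PTPRC, CD3E, PECAM1, VWF and DES, which mark other cell types, were also well above background on 9, so this mark does not by itself show that a gene is expressed. Each slide carried 1 array of each group under the same replicate number, and differences within a slide are given beside the fitted ones.

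IGFBP3, the main carrier of IGFs in blood and a protein that restrains or promotes growth depending on the cell, was lower in both knockdowns than in si-Control. Its level was 18.04, 17.37 and 17.58 on the 3 si-Control arrays, 16.76, 16.21 and 16.00 in GATA3 knockdown, and 16.18, 16.40 and 15.94 in HIF-1α knockdown. All 6 knockdown arrays were below all 3 control arrays, and the arrays of the 2 knockdowns overlapped. The group means were 17.66 ± 0.34, 16.32 ± 0.40 and 16.17 ± 0.23 (SD, n = 3 each).

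The log2 difference from si-Control was -1.34 (SE 0.29) in GATA3 knockdown, 2.53-fold lower, and -1.28, -1.16 and -1.58 within the slides. It was -1.49 (SE 0.29) in HIF-1α knockdown, 2.82-fold lower, and -1.86, -0.97 and -1.65 within the slides. Since the 3 si-Control arrays serve in both comparisons, a deviation of those arrays enters both values. The array was read from many cells at once, so fewer cells with IGFBP3 RNA and less of it in each cell cannot be told apart. Before normalization the mean signal of the IGFBP3 probe ran from 148432.2 to 310180.8 in si-Control, from 48167.7 to 95383.8 in GATA3 knockdown and from 77421 to 109608.5 in HIF-1α knockdown, and no spot was saturated.

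The IGFBP3 probe is printed 10 times on each array, and so is that of IGFBP2, a carrier with a preference for IGF2. For IGFBP3, the SD between the 10 spots of an array was 0.10 to 0.21, with a median of 0.15, against SDs between arrays of 0.23 to 0.40 within the groups. For IGFBP2, the spot SD reached 0.91 on GATA3 knockdown replicate 3, where single spots ran from 8.70 to 12.03, and 1 spot was set aside as non-uniform on each of HIF-1α knockdown replicates 1 and 3. On that array the IGFBP2 level therefore depended on 1 bright spot more than the IGFBP3 level did.

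**Figure D1:**
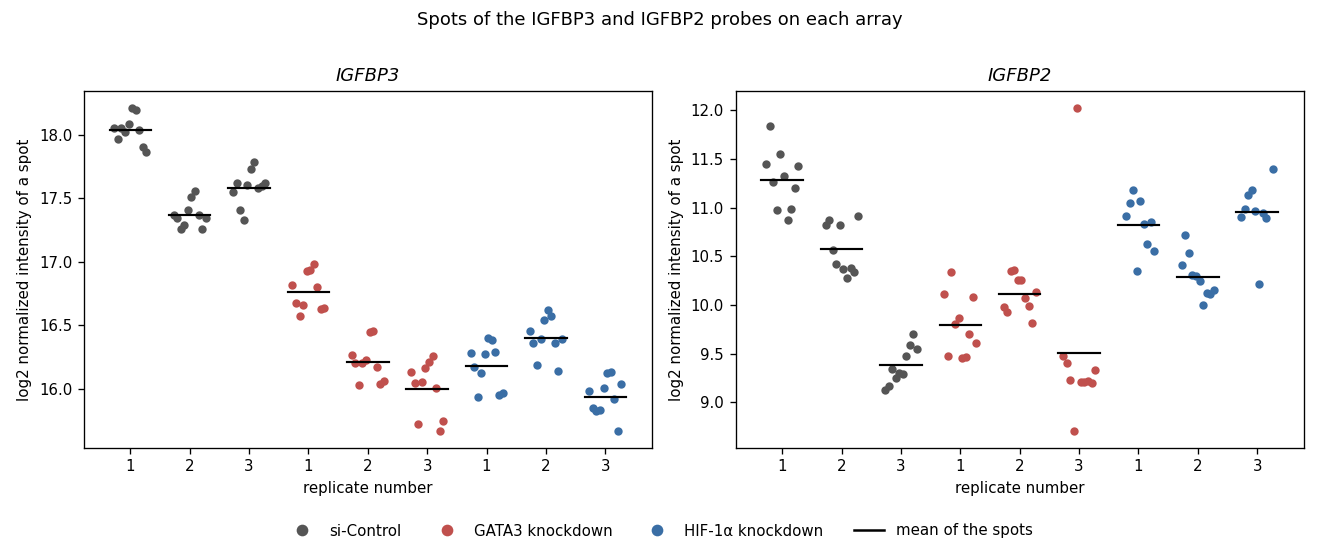
Log2 normalized intensity of each usable spot of the IGFBP3 probe (left) and the IGFBP2 probe (right), for the 3 replicates of each group. Black lines are the means of an array's spots. The IGFBP3 spots of an array lie close together and all control means are above all knockdown means, while 1 spot of IGFBP2 on GATA3 knockdown replicate 3 lies at 12.03.

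With the processing used here, IGFBP3 was the only member past the threshold of an unadjusted P of 0.05 in either comparison with si-Control. Under some alternatives others also passed: IGFBP5 in both comparisons, IGFBP2 and IGF2 in GATA3 knockdown, and IGFBP6 in HIF-1α knockdown. The closing sections give these fits. In GATA3 knockdown, 1 of 10 members passed, against 2.97% of all genes, and 1.38% of all genes passed with lower values. Groups of arrays did not overlap for 1 member, against 6.03% of genes. In HIF-1α knockdown, 1 of 10 passed, against 5.23% of all genes, and 3.28% passed with lower values. Groups did not overlap for 2 members, IGFBP3 and IGFBP5, against 13.3% of genes. As IGFBP3 set the choice of these genes, nothing is read from these counts. The median log2 difference of the 10 members from si-Control was -0.06 for GATA3 knockdown, beside -0.02 over all genes, and 0.08 for HIF-1α knockdown, beside -0.01. Without IGFBP3 the medians of the other 9 were 0.03 and 0.13.

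**Figure D2:**
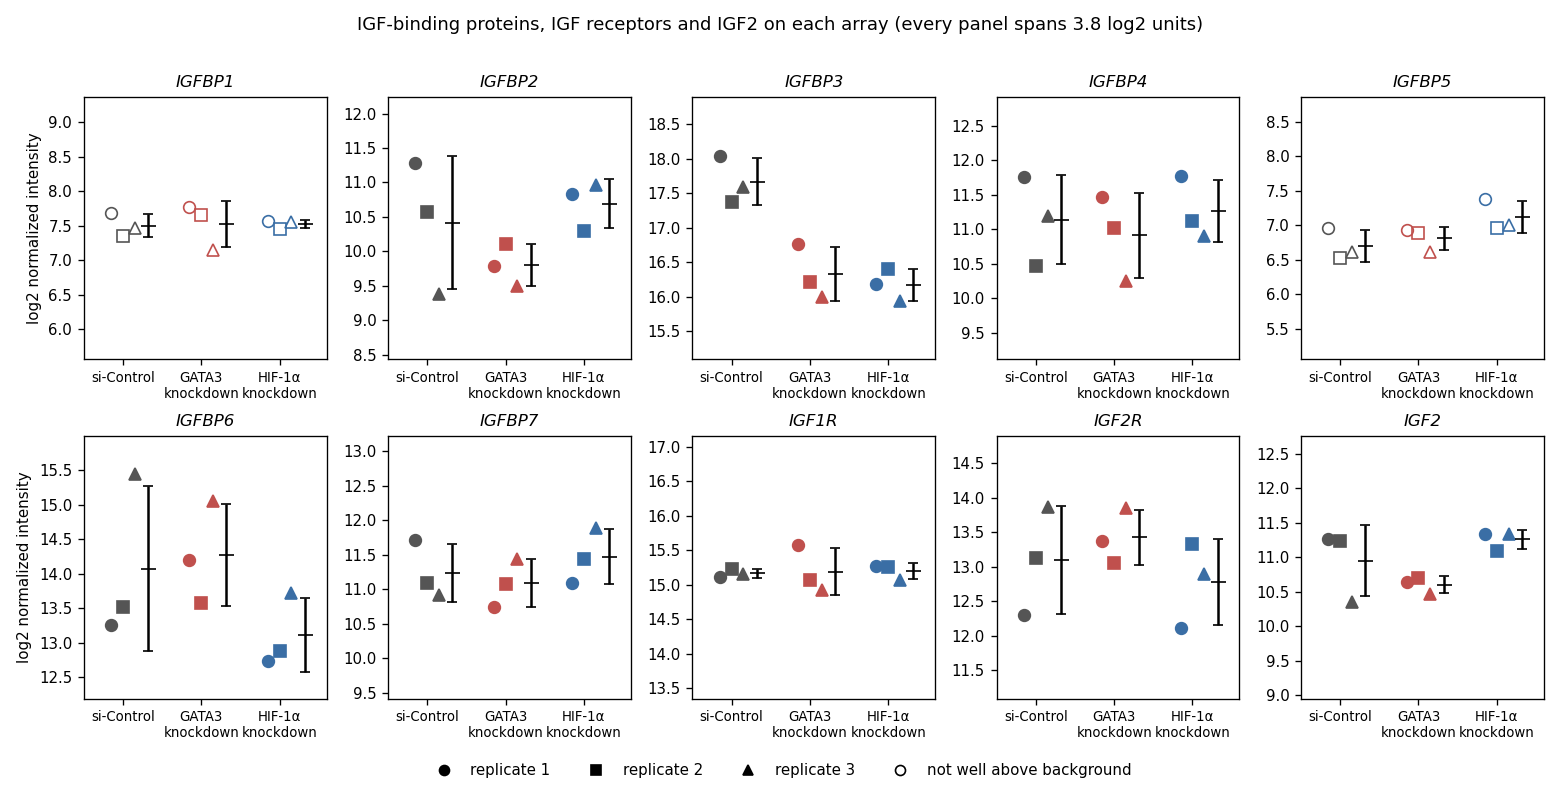
Log2 normalized intensity of each member on the 9 arrays, by group, with symbols for the replicate number and bars for the mean ± SD of 3 arrays. Open symbols are spots not well above background, as for IGFBP1 and IGFBP5 on every array. IGFBP3 shows a gap between the controls and both knockdowns, while the group means of IGF1R are 15.17, 15.19 and 15.20.

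Among the other binding proteins, the control arrays themselves were far apart for several. IGFBP2 was 11.29, 10.58 and 9.38 in si-Control, 9.79, 10.12 and 9.50 in GATA3 knockdown, and 10.83, 10.29 and 10.96 in HIF-1α knockdown. The control arrays thus spanned all the GATA3 knockdown arrays, and si-Control replicate 3, the dimmest array, had the lowest IGFBP2 level of the 9. Both statements rest on the 1 spot at 12.03 on GATA3 knockdown replicate 3, where the other spots ran from 8.70 to 9.47. The log2 difference from si-Control was -0.61 (SE 0.44) in GATA3 knockdown and 0.28 (SE 0.44) in HIF-1α knockdown. Without si-Control replicate 3 they were -1.13 and -0.24.

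IGFBP6, which prefers IGF2 over IGF1, showed the opposite on the same control array. It was 13.25, 13.51 and 15.45 in si-Control, 14.20, 13.58 and 15.05 in GATA3 knockdown, and 12.73, 12.87 and 13.73 in HIF-1α knockdown. Replicate 3 had the highest IGFBP6 level in each group. The log2 difference from si-Control was 0.20 (SE 0.59) in GATA3 knockdown and -0.96 (SE 0.59) in HIF-1α knockdown, where the differences within the slides were -0.52, -0.64 and -1.72. In HIF-1α knockdown it passed the threshold with the slide as a replicate block, when 3983 genes of the array did so, against 2478 without the block. Without si-Control replicate 3 its differences were 0.89 and -0.27.

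IGFBP4, a carrier cut by the protease PAPPA, overlapped between all groups. Its arrays ran from 10.47 to 11.76 in si-Control, from 10.25 to 11.48 in GATA3 knockdown and from 10.91 to 11.78 in HIF-1α knockdown. IGFBP7, a related secreted protein with low affinity for IGFs, has 2 probes, and the brighter one ran from 10.91 to 11.71, from 10.74 to 11.44 and from 11.09 to 11.89 in the same order. The other IGFBP7 probe, for another transcript, was well above background on 0 of 9 arrays, so IGFBP7 rests on 1 transcript's probe. Neither gene passed the threshold in either comparison.

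IGFBP1 and IGFBP5 were not well above background on any array. IGFBP1, a carrier known from liver as a hypoxia and insulin regulated gene, had group means of 7.50, 7.52 and 7.52. IGFBP5, a carrier that binds matrix, ran from 6.52 to 6.96 in si-Control, from 6.62 to 6.93 in GATA3 knockdown and from 6.97 to 7.39 in HIF-1α knockdown, so the last group did not overlap with the controls. As all these IGFBP5 values are below the mark, no fold is given. The difference of its mean levels was 0.42 here and between 0.003 and 1.18 under the other ways of processing. In RefSeq, IGFBP1 and IGFBP3 lie next to each other on chromosome 7, with 0 genes between them, and so do IGFBP2 and IGFBP5 on chromosome 2. In both pairs 1 neighbour was well above background on 9 arrays and the other on 0.

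IGF1R, the signalling receptor, was 15.11, 15.23 and 15.16 in si-Control, 15.57, 15.07 and 14.93 in GATA3 knockdown, and 15.27, 15.26 and 15.07 in HIF-1α knockdown. The SD of the control arrays was 0.06, and the log2 differences from them were 0.03 in both knockdowns (SE 0.24 each). IGF2R, the scavenging receptor, was more scattered, at 12.31, 13.12 and 13.87 in si-Control, 13.38, 13.06 and 13.86 in GATA3 knockdown, and 12.11, 13.33 and 12.90 in HIF-1α knockdown. Its log2 differences were 0.33 and -0.32 (SE 0.44 each), and the arrays of all groups overlapped. Both differences turned in sign with an array left out, to -0.06 without si-Control replicate 1 in GATA3 knockdown and to 0.07 without si-Control replicate 3 in HIF-1α knockdown.

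The ligand IGF2 was 11.26, 11.24 and 10.36 in si-Control, 10.64, 10.70 and 10.46 in GATA3 knockdown, and 11.34, 11.09 and 11.34 in HIF-1α knockdown. Of the control arrays, si-Control replicate 3 lay below those of GATA3 knockdown and the other two lay among those of HIF-1α knockdown. The log2 differences from si-Control were -0.35 and 0.31 (SE 0.28 each). A dimmer second probe of IGF2, well above background on 8 of 9 arrays, gave 0.02 and 0.41 for the same differences, so the probes differed in sign in GATA3 knockdown.

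**Figure D3:**
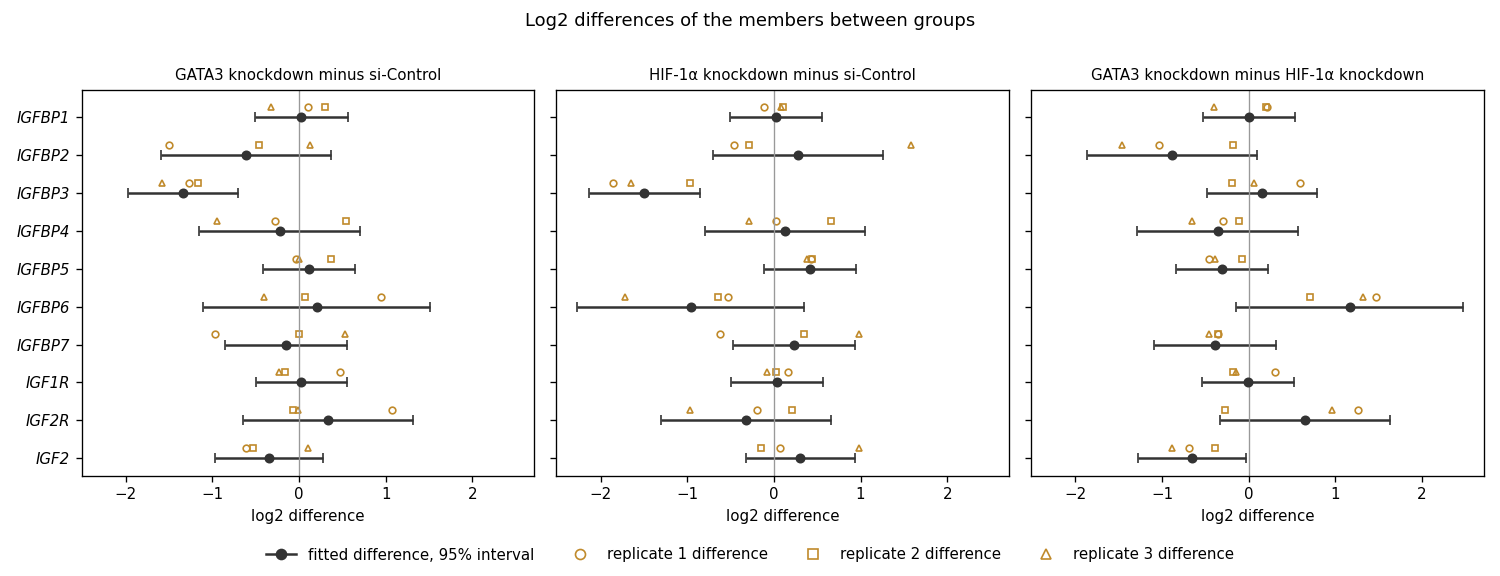
Fitted log2 differences of the 10 members with 95% intervals in the 3 comparisons, and above each the differences within the 3 slides, shown by replicate number. In both comparisons with si-Control, which the choice of members used, the interval lies away from 0 for IGFBP3, and between the knockdowns it does so for IGF2.

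The comparison of GATA3 knockdown with HIF-1α knockdown asks whether the 2 factors left the IGF genes at different levels, and the choice of members did not use it. Here 1 of 10 members passed the unadjusted threshold, against 12% of all genes, so the members' share is near that of the array as a whole. That member, IGF2, was lower in GATA3 knockdown, against 5.05% of genes lower past the threshold, and none was higher, against 6.93% of genes. The arrays did not overlap for 3 members, IGFBP2, IGF2 and, below background, IGFBP5, each lower in GATA3 knockdown, against 22.8% of genes in either direction and 10.9% lower. After Benjamini-Hochberg adjustment over all genes, limma left 0 of 10 members, against 0.00422% of genes. The adjusted P values of the members ran from 0.411 to 0.997. The median log2 difference of the members was -0.16, beside 0.00 over all genes, as 6 were lower and 4 higher in GATA3 knockdown.

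IGF2 was the member that passed. It was lower in GATA3 knockdown by a log2 difference of -0.65 (SE 0.28, 95% interval -1.28 to -0.03), 1.57-fold, with an adjusted P of 0.411 by limma. It was lower on all 3 slides, by -0.69, -0.39 and -0.88. The dimmer IGF2 probe gave -0.39 and did not pass, and the mean of both probes gave -0.52, with an unadjusted P of 0.0863 in limma's fit. IGFBP2 was lower by -0.89 (SE 0.44, 95% interval -1.87 to 0.09, adjusted P 0.428 by limma), also on all 3 slides.

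IGFBP6 had the largest difference in means of the members between the knockdowns, though their arrays overlapped and it did not pass (unadjusted P 0.0755 by limma). The log2 difference was 1.17 (SE 0.59, 95% interval -0.14 to 2.48, adjusted P 0.431 by limma), 2.24-fold higher in GATA3 knockdown. It was higher on all 3 slides, by 1.47, 0.71 and 1.32. With the slide as a replicate block, limma gave the same difference an unadjusted P of 0.00459 and an adjusted P of 0.166. IGFBP6 and IGF2 then passed the unadjusted threshold, while 8876 genes of the array did so, against 5675 without the block.

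IGFBP3 differed by 0.15 between the knockdowns (SE 0.29, 95% interval -0.49 to 0.79, adjusted P 0.802 by limma). From highest to lowest mean the order was thus si-Control, then GATA3 knockdown, then HIF-1α knockdown, and the last 2 did not differ beyond their spread. As IGFBP3 was chosen for being low in both knockdowns, this difference is not independent of the choice. The interval leaves room for a difference of up to 0.79 on the log2 scale. The interval for IGF1R was about as wide, at -0.54 to 0.52 around -0.01, and that for IGF2R ran from -0.33 to 1.63 around 0.65. Neither receptor passed the threshold.

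**Figure D4:**
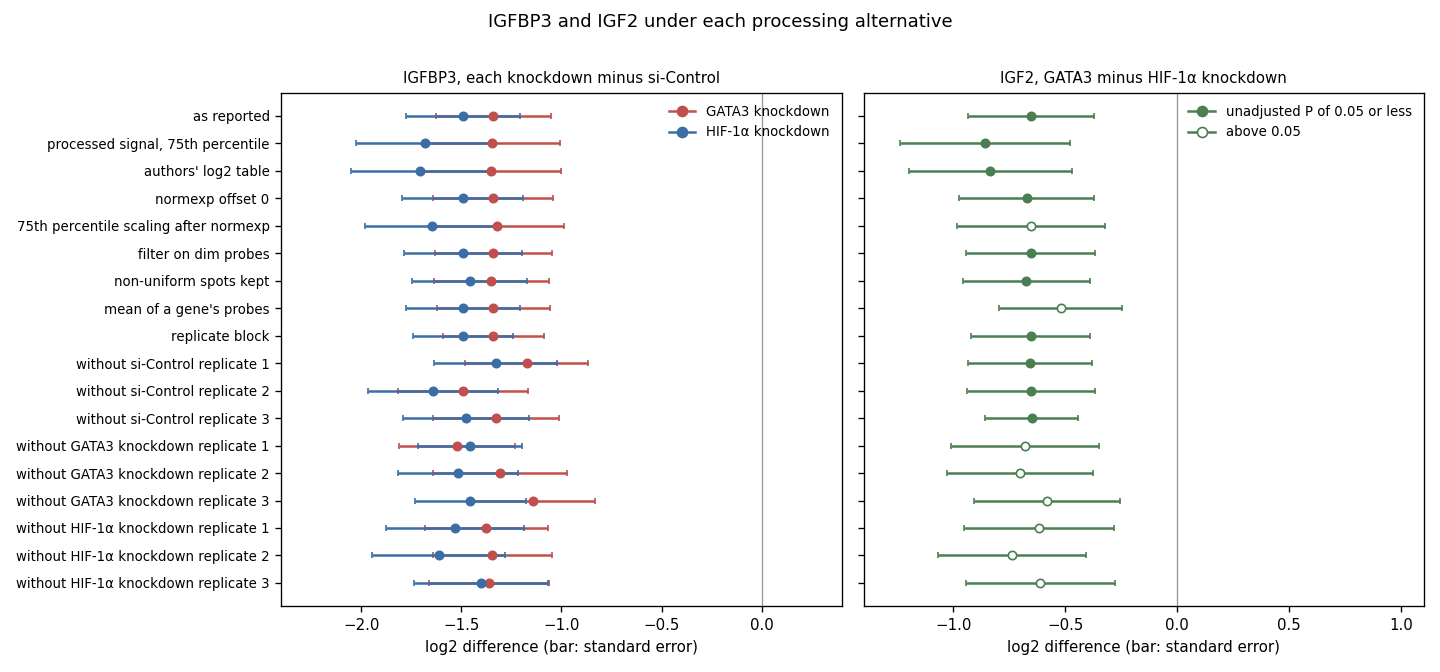
Log2 difference with its standard error under each way of processing the arrays, for IGFBP3 in each knockdown minus si-Control (left) and for IGF2 in GATA3 knockdown minus HIF-1α knockdown (right). Open symbols for IGF2 are unadjusted P values above 0.05. IGFBP3 stays between -1.71 and -1.14 on the left. IGF2 stays below 0 while passing the threshold in 9 of 17 alternatives, and in none that leaves out a knockdown array.

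The wider IGF axis was read through 30 partners: ligands, receptors, proteases and their inhibitors, adaptors, mRNA-binding proteins, related proteins and kinases. In GATA3 knockdown minus si-Control 15 were higher and 15 lower, 0 passed the threshold and their median was 0.01, while 47.7% of all genes were higher. INSR and GRB14 rest there on 1 array per group. In HIF-1α knockdown minus si-Control 28 could be compared, because INSR and GRB14 had too many non-uniform spots, and 22 were lower and 6 higher, while 49% of all genes were higher. Of these, 3 passed, all lower, against 5.23% of all genes, with a median over the list of -0.27 beside -0.01 over all genes. Between the knockdowns 24 were higher in GATA3 knockdown and 4 lower, 5 passed, all higher, and the median was 0.28. Over all genes 50.1% were higher there, 12% passed and 6.93% passed with higher values. After Benjamini-Hochberg adjustment, limma left 0 in each of these comparisons.

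The 3 partners lower past the threshold in HIF-1α knockdown than in si-Control were IGF2BP2, IRS1 and IGFBPL1. IGF2BP2, which binds and stabilises mRNAs including that of IGF2, was 14.90, 15.51 and 16.21 in si-Control and 13.80, 14.59 and 14.48 in HIF-1α knockdown, a difference of -1.25 (SE 0.38). The groups did not overlap, as for 8.08% of genes with lower values, and its second probe gave -1.38. IRS1, the adaptor that links IGF1R to PI3 kinase, was 10.28, 10.32 and 10.39 in si-Control and 9.09, 9.97 and 9.59 in HIF-1α knockdown, a difference of -0.77 (SE 0.26). A second IRS1 probe, well above background on 5 of 9 arrays, gave -0.07. In GATA3 knockdown IRS1 was 9.68, 9.80 and 9.83, a difference of -0.555 (SE 0.26) just short of the threshold, and the second probe gave 0.44. IGFBPL1, a secreted relative of the binding proteins, had a difference of -0.70 (SE 0.27) in HIF-1α knockdown and -0.43 (SE 0.27) in GATA3 knockdown. Between the knockdowns IRS1 differed by 0.22 and IGFBPL1 by 0.27, and neither passed, so their falls are not shown to be particular to HIF-1α knockdown.

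Between the knockdowns, STC2, an inhibitor of the IGFBP protease PAPPA, had the largest gap of the list. It was 13.58, 13.93 and 14.68 in GATA3 knockdown and 10.69, 12.53 and 12.82 in HIF-1α knockdown, a log2 difference of 2.05 (SE 0.65, adjusted P 0.356 by limma). PAPPA itself was not well above background on any array. PIK3R1, a regulatory subunit of PI3 kinase, was higher in GATA3 knockdown by 1.07 (SE 0.40, adjusted P 0.386 by limma). The 3 IGF2 mRNA-binding proteins were all higher there, IGF2BP1 by 1.01, IGF2BP2 by 1.05 and IGF2BP3 by 0.77, with adjusted P values of 0.415, 0.384 and 0.411. For each of these 5 genes, named because they passed here, the arrays of the 2 knockdowns did not overlap. Over all genes 22.8% did not overlap, and 11.9% did so with higher values. IGF2 itself was lower in GATA3 knockdown, and a link to its mRNA-binding proteins was not tested.

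**Figure D5:**
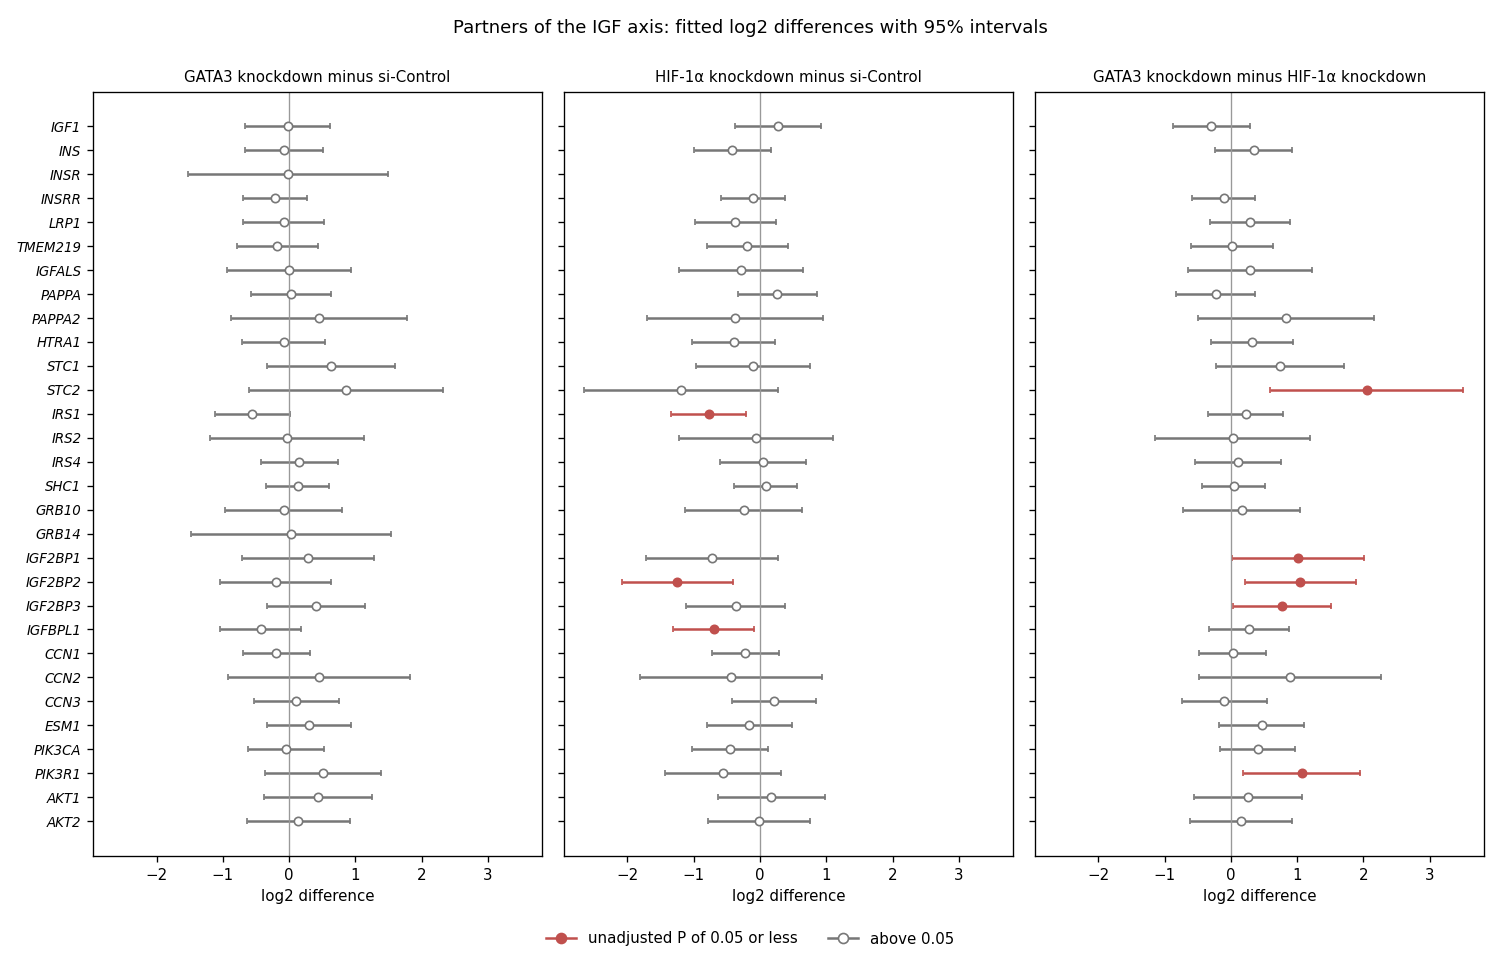
Fitted log2 differences of the 30 partners of the IGF axis with 95% intervals in the 3 comparisons. Filled symbols passed an unadjusted P of 0.05, and INSR and GRB14 have no value where their spots were set aside. In GATA3 knockdown minus HIF-1α knockdown 24 of 28 lie to the right of 0, with STC2 at 2.05.

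Across the 9 arrays, the genes most like IGFBP3 in their levels were UCA1 (Pearson's r = 0.91), CYP19A1 (0.91), ATG9A (0.89), PTCH1 (0.88) and HOXC-AS3 (0.88), out of 15906 genes with a RefSeq symbol that were well above background on every array. These values are a description over 9 arrays that share 3 groups and 3 slides. The genes were picked for following IGFBP3, which was lower in both knockdowns, so nothing is read from their own lower means. UCA1, a long non-coding RNA, went from a mean of 16.89 in si-Control to 15.96 in the GATA3 knockdown and to 15.53 in the HIF-1α knockdown. CYP19A1, which encodes aromatase, went from 9.98 to 9.33 and 9.32.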

How the data were processed

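RNA of OEC-M1 cells was measured on 9 Agilent arrays with 1 dye, 3 for each group. The authors deposited, per the file headers, the linear intensity of each spot and of its background from Agilent Feature Extraction 10.5.1.1, with no normalization between arrays. For probes printed once, their table of log2 values equals the log2 processed signal less 1 constant per array (100% of values within 0.001). Probes printed more than once were not compared. The column medians of that table ran from -2.40 to -2.07. Depth has no counterpart on arrays, so their number limits the precision.

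R 4.3.3 and limma 3.58.1 were used. The median spot signal was corrected by normexp with an offset of 50, non-uniform spots became missing values, and control spots were removed. Quantile normalization followed, then replicate spots were averaged and each gene was read from its brightest probe. Accessions of 31104 of 58201 probes matched RefSeq symbols. Each unmatched accession counts as a gene of its own, so 22439 of the 47753 genes carry a symbol. The shares over all genes include those without one. One fit by lmFit and eBayes covered the 3 groups, and a gene passed at a two-sided unadjusted P of 0.05. Adjusted P values use Benjamini-Hochberg over all genes. The sources used here do not say that replicates are separate cultures, so P values measure the spread between arrays, which may be technical. Replicate numbers come from the labels, and the file headers put arrays of the same number on 1 slide.

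The genes named are the members, GATA3 and HIF1A, partners at the threshold in any comparison and the 5 genes most correlated with IGFBP3. Cell type markers, INSR, GRB14 and PAPPA are named besides, the last 3 after their values were seen. The members and lists were chosen with earlier results of these data known. Promoter sequences are from RefSeq on GRCh38.p14. The alternatives were the processed signal, the deposited log2 table, an offset of 0, scaling to the 75th percentile in place of quantiles, leaving out dim probes, keeping non-uniform spots, the mean of a gene's probes, a replicate block and each array left out.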

Additional observations from a re-analysis of the deposited data

Results flagged for a closer look

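IGF2 differed between the knockdowns, with a log2 difference of -0.654 for GATA3 knockdown minus HIF-1α knockdown in the test of that difference (SE 0.28, adjusted P 0.411 by limma). It was lower on 3 of 3 slides, and its differences from si-Control were -0.35 (GATA3 knockdown) and 0.31 (HIF-1α knockdown). The arrays of the knockdowns did not overlap, while si-Control replicate 3, the dimmest array, lay at 10.36, below all of them. The part of the array's brightness in this difference was not tested.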

How the results depend on the processing

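Over the 17 alternatives the difference of IGFBP3 from si-Control, on which the choice of members rests, ran from -1.52 to -1.14 in GATA3 knockdown and from -1.71 to -1.33 in HIF-1α knockdown. The members passing in GATA3 knockdown were 2 with the processed signal and with the authors' log2 table, where IGFBP5 joined, and from 1 to 3 with an array left out (3 without si-Control replicate 3, IGFBP2, IGFBP3 and IGF2, with 5961 genes passing against 1418). In HIF-1α knockdown they were 2 with the processed signal, the authors' table and no offset, where IGFBP5 joined below background, and from 1 to 2 with an array left out (2 without si-Control replicate 1, where IGFBP6 joined, with 4800 genes passing against 2478). Between the knockdowns they were 0 with 75th percentile scaling after normexp and with the mean of a gene's probes, and from 0 to 3 with an array left out: 3 without si-Control replicate 3 (IGFBP2, IGFBP6 and IGF2, with 9436 genes passing against 5675), 2 without si-Control replicate 1 (IGFBP2 and IGF2, with 6691), 1 without GATA3 knockdown replicate 2 (IGFBP6 and not IGF2, with 9710), and 0 without GATA3 knockdown replicate 1 or 3 or any HIF-1α knockdown replicate, with 2695 to 5398 genes passing. IGF2 thus passed in 3 of the 9 fits that leave out an array, each without a si-Control array, which is not part of this comparison. It passed in no fit without a knockdown array. The cause was not tested. Percentile scaling also shifted the median of all genes between the knockdowns to 0.15.

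Between the knockdowns, the sign of some small differences turned. IGFBP3 ran from -0.066 to 0.312 with an array left out, turning without GATA3 knockdown replicate 1, and IGF1R from -0.20 to 0.13, with 0.061 for the processed signal, 0.084 for the authors' table and 0.11 for percentile scaling. IGFBP1, below background, was -0.01 without an offset and ran from -0.13 to 0.20 with an array left out, and IGFBP5, also below background, was 0.16 with percentile scaling. Some differences from si-Control turned too with an array left out. That of IGFBP2 in HIF-1α knockdown ran from -0.24 to 0.71, and that of IGFBP6 in GATA3 knockdown from -0.20 to 0.89. Those of IGF2R ran from -0.06 to 0.71 and from -0.71 to 0.07 in the 2 knockdowns, and those of IGFBP4 from -0.56 to 0.10 and from -0.21 to 0.44. That of IGFBP7 in GATA3 knockdown ran from -0.33 to 0.09, and the small differences of IGF1R and IGFBP1 turned in both knockdowns.

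With the replicate number as a block, the members passing were 1, 2 (IGFBP3 and IGFBP6) and 2 (IGFBP6 and IGF2) in the 3 comparisons, and all genes passing were 2381, 3983 and 8876 against 1418, 2478 and 5675. The pairing was checked by the correlation of deviations from the group means, which ran from -0.19 to 0.72 for arrays of the same number and was over 0.1 in 7 of 9 pairs, and 8 of 9 arrays correlated best with one of their own number.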
